A study of Mus musculus with 8 samples.

Results

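Oxidative phosphorylation genes were examined in adipocyte precursors, the skin's progenitors of fat cells, by taking every gene of the expression table whose symbol names a nuclear-encoded subunit of the respiratory chain or of ATP synthase. The symbol patterns Nduf (with a, b, c, s or v), Sdha to Sdhd, Uqcr, Cyc1, Cox4 to Cox8 and Atp5 matched 93 of 24358 genes, with 121 of 34535 transcript isoforms. Among the 93 were 7 assembly factors of complex I (the Ndufaf genes) and 2 genes, Atp5s and Atp5sl, that share the Atp5 prefix but encode no subunit of the enzyme. Dermal cells of male C57/Bl6 mice aged 7 weeks had been sorted by flow cytometry, giving 6 samples of nonwounded dorsal skin and 2 of a wound bed at day 5. No transgene, allele or drug is named in the labels, nor is it stated there that each sample was a separate animal. RNA was sequenced from poly(A)-based libraries, and the authors give each isoform 1 pooled FPKM per group (fragments scaled for the length of the transcript and for how deeply the library was sequenced). With no value per sample, no SD can be given, and sample depth is unknown.

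Mitochondria make most ATP by passing electrons from NADH (complex I) and succinate (complex II) through ubiquinone, complex III and cytochrome c to oxygen at complex IV, and by letting the protons pumped on the way flow back through ATP synthase (complex V). Complex I, III, IV and V each combine a few subunits encoded in mitochondrial DNA with many encoded in the nucleus, and the latter are the genes described here. Several complex IV subunits have paralogs used in muscle, in testis or at low oxygen.

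Markers of the sorted cells were checked first. Pdgfra, a receptor gene used to mark them, summed to 80.9 FPKM in nonwounded skin and 91.8 in the wound bed, and the surface marker Cd34 to 1104 and 679. Of the 7 precursor markers in the table, 0 were called higher and 2 lower, Dpp4 (220 to 72.7 FPKM) and Cd24a (24.9 to 9.38 FPKM). Ly6a stood at 2691 and 1576 FPKM, Itgb1 at 117 and 197, and Pdgfrb at 27.9 and 41.4, all without a call. Markers of other cells differed between the group columns. All 11 macrophage and monocyte markers in the table were higher in the wound bed, with 7 called and a summed FPKM of 971 against 369, while the 6 erythroid markers summed to 206 against 3746 and the 5 mast cell markers to 6.24 against 59.0. The 9 mature adipocyte markers summed to 5.68 FPKM in the wound bed against 93.6, with 1, Adipoq, called lower. Keratinocyte markers summed to 31.5 against 14.0, with 2 called higher. Their part in the values below was not tested, and in such bulk samples fewer cells of a type cannot be told apart from less RNA per cell.

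Promoters of the subunit genes are shown because many respiratory chain genes are known targets of nuclear respiratory factor 1 (NRF1), whose palindromic site contains the letters GCGCA, any base and then GCGC. RefSeq windows on GRCm38.p6 were at hand for 76 of the 93 genes. In the 250 bases upstream of the start this motif, searched on both strands, was present for 14 of the 76 genes (18.4%), against 4.23% of 27025 genes in all, and with the 50 bases downstream included for 19 (25%), against 5.19%. The windows below, 1 with a match from each of complex I, II, IV and V, and those of 2 complex I genes that were lower in the wound bed and have no match, are written 5′ to 3′ along the gene with the matches in capitals. The Ndufb3 window ends at base 58586396, while the locus of its measured isoform starts at 58586599. The bases directly upstream of that isoform are therefore not shown.
Ndufb4, chr16:37654369-37654618, minus strand: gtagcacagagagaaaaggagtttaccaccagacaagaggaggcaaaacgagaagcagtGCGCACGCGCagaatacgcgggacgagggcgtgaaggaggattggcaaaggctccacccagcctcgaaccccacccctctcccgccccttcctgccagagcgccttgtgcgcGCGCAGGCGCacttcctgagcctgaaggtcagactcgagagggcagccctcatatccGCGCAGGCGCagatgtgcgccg
Sdhd, chr9:50603850-50604099, minus strand: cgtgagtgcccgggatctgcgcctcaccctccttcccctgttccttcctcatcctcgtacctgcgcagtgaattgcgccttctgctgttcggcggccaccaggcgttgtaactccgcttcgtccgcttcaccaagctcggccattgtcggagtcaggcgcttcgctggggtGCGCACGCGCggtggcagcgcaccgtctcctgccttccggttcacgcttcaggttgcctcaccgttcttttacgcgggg
Cox6a1, chr5:115348959-115349208, minus strand: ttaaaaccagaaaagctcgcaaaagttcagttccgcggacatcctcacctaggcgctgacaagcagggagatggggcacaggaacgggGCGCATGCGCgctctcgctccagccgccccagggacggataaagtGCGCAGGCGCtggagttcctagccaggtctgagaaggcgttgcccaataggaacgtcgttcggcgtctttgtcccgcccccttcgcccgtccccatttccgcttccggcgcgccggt
Atp5g2, chr15:102671048-102671297, minus strand: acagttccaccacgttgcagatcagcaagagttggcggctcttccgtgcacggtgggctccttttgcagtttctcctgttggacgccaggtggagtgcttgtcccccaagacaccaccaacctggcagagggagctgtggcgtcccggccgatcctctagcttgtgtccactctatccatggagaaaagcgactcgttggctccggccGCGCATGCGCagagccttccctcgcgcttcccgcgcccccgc
Ndufb3, chr1:58586147-58586396, plus strand: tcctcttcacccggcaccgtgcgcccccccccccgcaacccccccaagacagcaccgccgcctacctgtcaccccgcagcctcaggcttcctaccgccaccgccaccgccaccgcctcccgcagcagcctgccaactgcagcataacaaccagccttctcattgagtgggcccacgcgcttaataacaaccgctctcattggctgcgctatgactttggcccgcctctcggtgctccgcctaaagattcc
Ndufv2, chr17:66101560-66101809, minus strand: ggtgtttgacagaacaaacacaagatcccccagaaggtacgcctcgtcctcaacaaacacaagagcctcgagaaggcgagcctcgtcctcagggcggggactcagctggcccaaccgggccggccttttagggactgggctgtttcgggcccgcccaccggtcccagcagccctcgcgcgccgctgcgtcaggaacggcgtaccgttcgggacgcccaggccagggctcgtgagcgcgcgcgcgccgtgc

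Fold changes are given beside the motifs as a description, with no test. The 14 genes with a match upstream had a median log2 fold change (wound bed over nonwounded) of -0.40, and the 61 without one that passed the level filter described below also had -0.40. The ETS-type motif CCGGAAGT, as bound by the GABPA factor, was in the 250 upstream bases of 3 of the 76 genes (3.95%, against 3.23% of all genes), and the median log2 fold change was -0.00 with it and -0.40 without. The motif AAGATGGCG, as bound by YY1, was in 2 (2.63%, against 0.710%) upstream and in 8 (10.5%, against 1.64%) with the 50 downstream bases included. The short core of the hypoxia response element, ACGTG, was upstream in 17 of the 76 (22.4%) and in 18.5% of all genes, with medians of -0.29 with it and -0.42 without. For the YY1 motif upstream the medians were -0.29 and -0.40. None of these counts says whether a factor was bound.

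The comparison of wound bed with nonwounded skin asked how expression differs between precursors in the 2 settings. Most subunit genes stood slightly lower in the wound bed, and few of these differences passed a test. Summed over isoforms, 89 of the 93 genes were above 0 in both groups with 1 FPKM or more in the higher one, and 78 of the 89 (87.6%) were lower in the wound bed and 11 higher. Of 12643 such genes in all, 58.5% were lower and 41.5% higher. A log2 fold change of at least 1 was reached by 7 of the 89 downwards and 1 upwards, against 15.4% and 11.9% of all genes. The median log2 fold change of the 89 was -0.37, with quartiles of -0.52 and -0.09, against a median of -0.16 and quartiles of -0.66 and 0.37 over all genes. The subunit genes thus lay in a narrower band than genes in general. With the median of all genes set to 0, 63 of the 89 (70.8%) were lower, against 50% of all genes. Restricted to genes with at least 20 FPKM in nonwounded skin, 64 of 74 (86.5%) were lower and 10 higher, against 64.4% and 35.6% of all genes. At that level the quartiles were -0.47 and -0.08 for the subunit genes and -0.59 and 0.18 for all genes. The band of all genes was thus less wide there, and that of the subunit genes was still narrower.

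**Figure D1:**
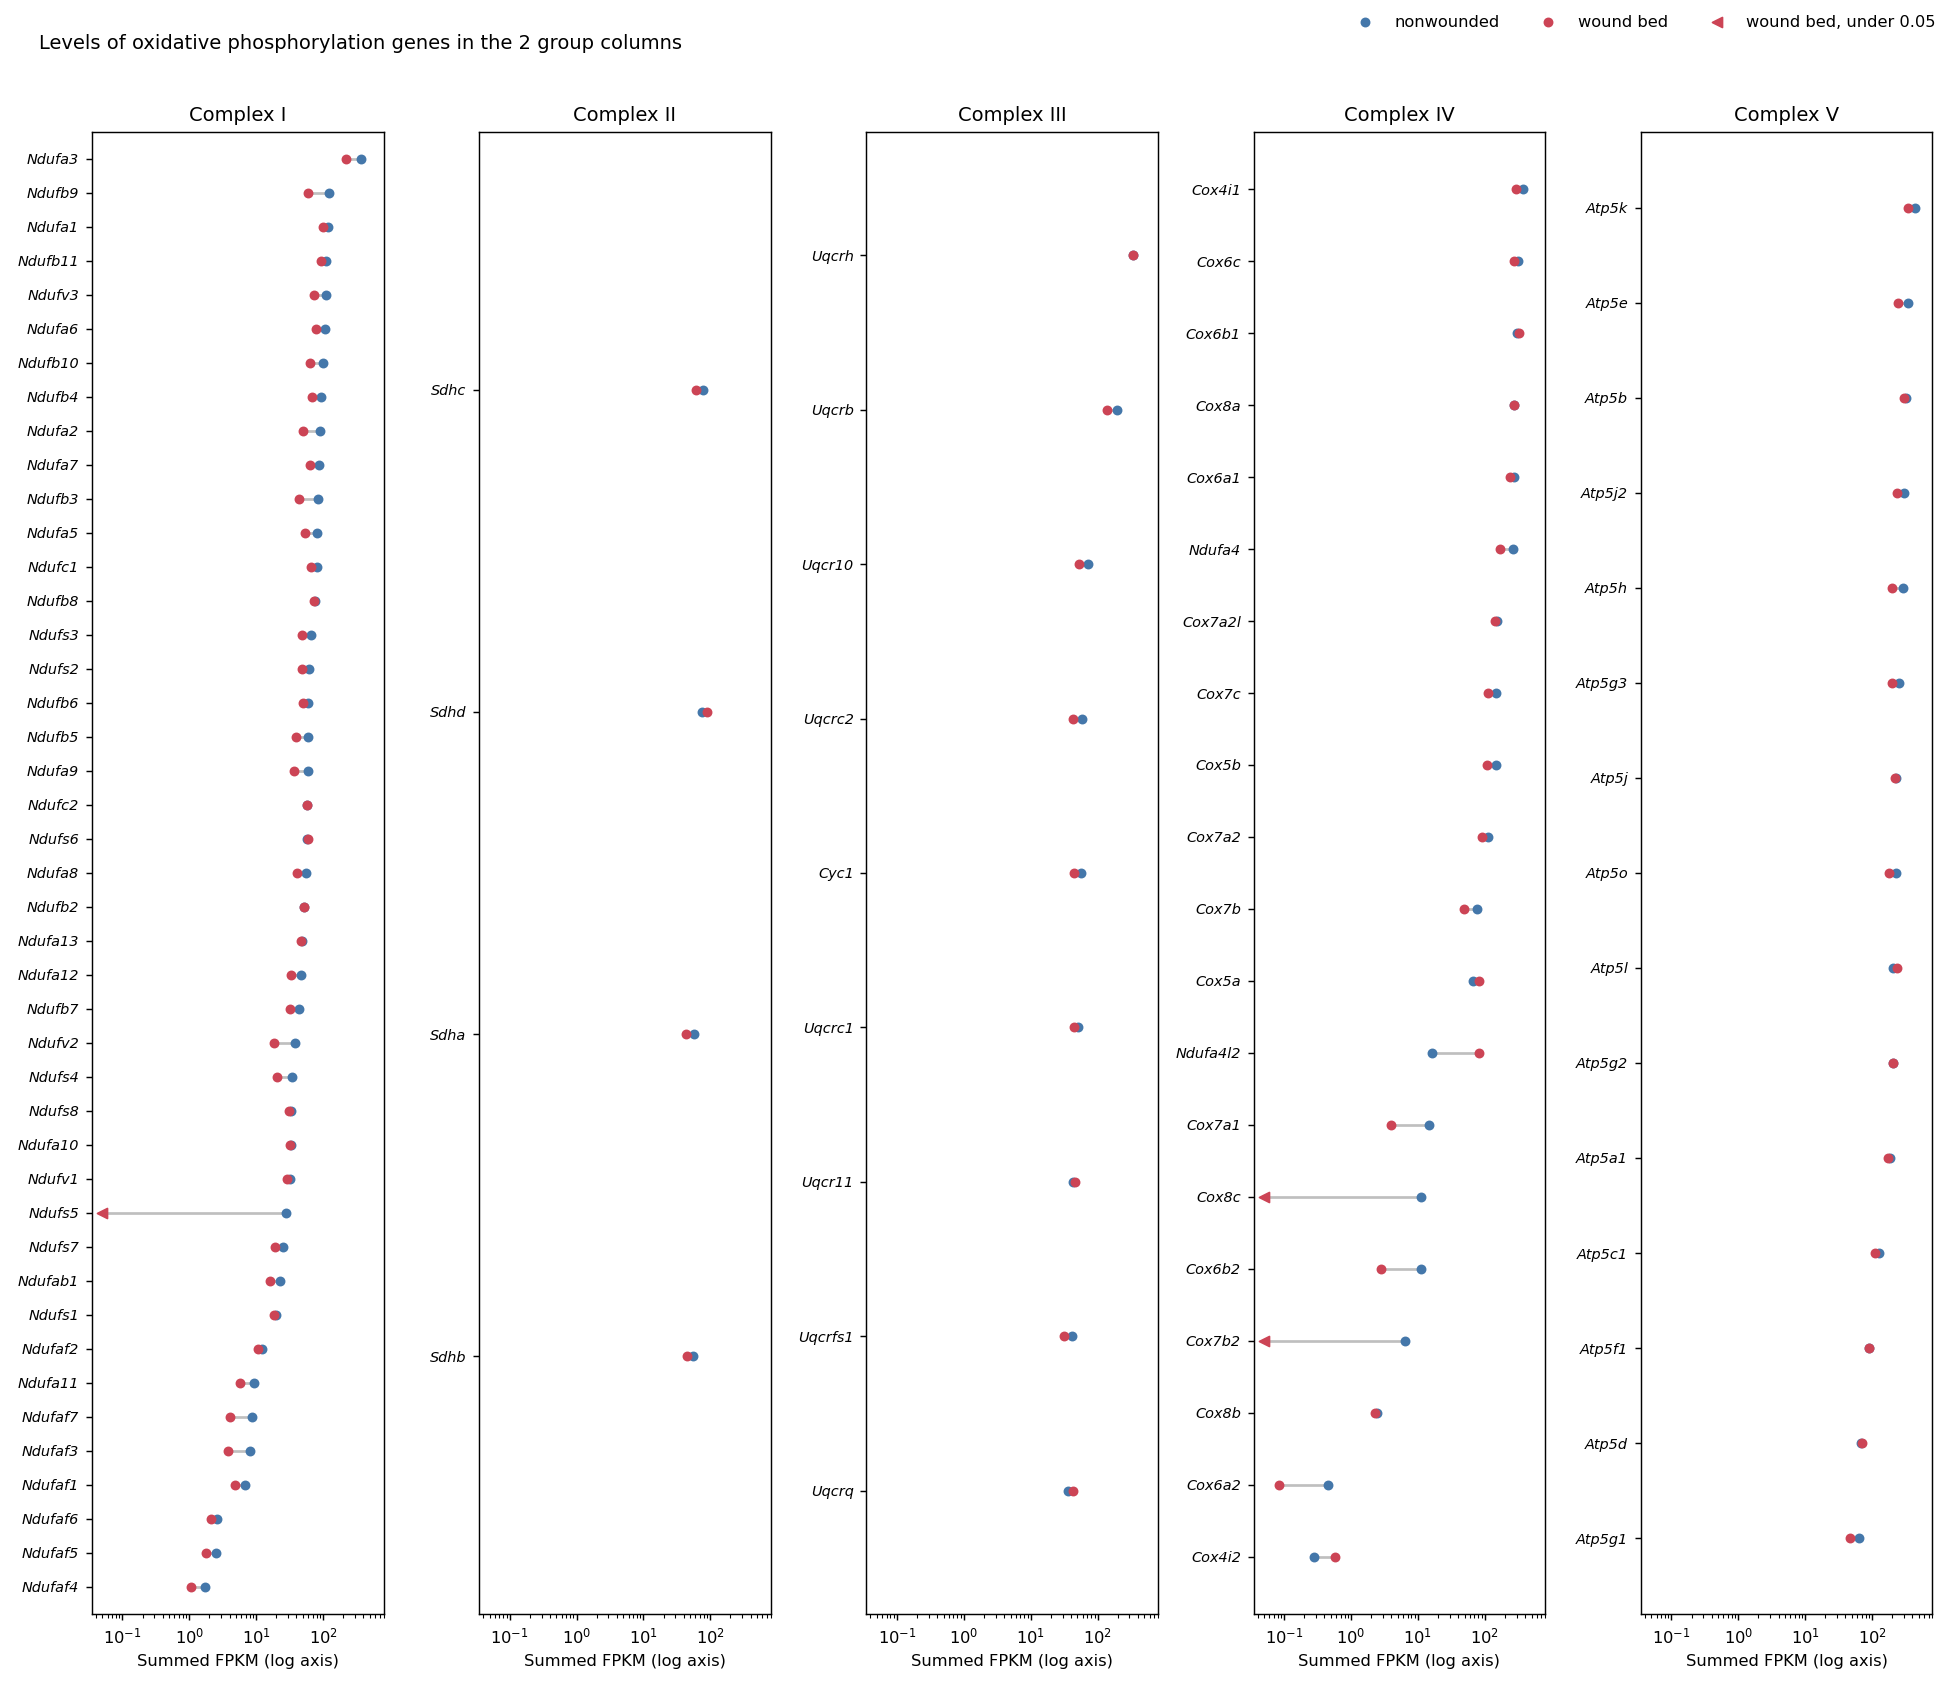
Summed FPKM (horizontal log axis) of each gene of complexes I to V (rows, ordered by the nonwounded value) in nonwounded (blue) and wound bed (red) precursors, 1 pooled value per group, with triangles at the left edge for wound bed values under 0.05. Most pairs lie close together with the wound bed value to the left, Ndufa4l2 (81.9 against 16.0) lies the other way, and Ndufs5, Cox8c and Cox7b2 reach the left edge.

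Calls were made on isoforms, from Cuffdiff p-values in the authors' deposited table adjusted by the Benjamini-Hochberg method over all 17775 tested isoforms, at an adjusted p under 0.05. Every adjusted p given below as from that table is its deposited p-value after this adjustment. Of the 109 tested isoforms of these genes, 1 was called higher and 8 lower. The table as a whole had 5.66% called higher and 7.25% called lower, so the lower share of the subunit genes (7.34%) was near the background and the higher share (0.917%) was below it. At an unadjusted p under 0.05, 18 of the 109 were lower (16.5%, against 16.4% of all) and 2 were higher (1.83%, against 10.9%). Taking for each gene its major isoform (the tested one with the highest FPKM over both groups), 6 of 91 genes were called lower and 1 higher, against 8.68% and 7.00% of 13719 genes.

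Complex I, the NADH dehydrogenase that feeds the chain, held 43 of the 93 genes and 4 of the 8 lower calls, a similar part of both. Over all members the lower calls were 7.34% of the tested isoforms, against 7.25% of all isoforms. The complex I genes had a median log2 fold change of -0.45, and 42 of the 43 were lower in the wound bed, against 58.5% of all genes. Summed over the complex, the FPKM was 2617 in nonwounded skin and 1872 in the wound bed, which is 71.5% of the nonwounded level. The 7 core subunits that carry the flavin and the iron-sulfur clusters had a median of -0.34, the 29 accessory subunits -0.45 and the 7 assembly factors -0.50. No test between these classes was made.

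Ndufv2, a core subunit gene with an iron-sulfur cluster, fell from a summed FPKM of 37.4 in nonwounded skin to 18.2 in the wound bed, a log2 fold change of -1.04. The call rests on its main isoform, with an adjusted p of 0.00239 from the authors' deposited table. Its locus on chromosome 17, from 66078795 to 66101559, holds no other gene in the table.

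Ndufb9, an accessory subunit gene of the membrane arm, fell from 122 to 59.8 FPKM, by 1.03 on the log2 scale (adjusted p = 0.00819 from the authors' deposited table). It was the second most abundant complex I transcript in nonwounded skin and lies on chromosome 15 from 58933810 to 58939489. Ndufb3, also of the membrane arm, fell from 83.8 to 43.0 FPKM, by 0.96 (adjusted p = 0.0335 from the authors' deposited table; chromosome 1, 58586599 to 58595948). In each of these 3 genes the wound bed level was about 50% of the nonwounded level. Ndufaf7, a methyltransferase that acts in complex I assembly, fell from 8.64 to 4.07 FPKM (-1.08, adjusted p = 0.0308 from the authors' deposited table; chromosome 17, 78937135 to 78948052).

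At an adjusted p under 0.1, 15 of the 109 isoforms were lower and 1 higher, against 10.2% and 7.52% of all. Of complex I, 5 isoforms had an adjusted p between 0.05 and 0.1 and were lower in the wound bed, those of Ndufs4, Ndufa3, Ndufa9, Ndufs1 and Ndufa2. Ndufa3, an accessory subunit gene, had the highest complex I level of all, at 373 FPKM in nonwounded skin and 224 in the wound bed (-0.74). Ndufs4, which helps to complete the NADH-binding arm, stood at 34.2 and 20.8 (-0.72). Ndufaf3, an assembly factor gene, stood at 8.18 and 3.84 FPKM (-1.09), with an adjusted p of 0.294 from the authors' deposited table. At the other end Ndufs6 (57.2 to 60.0 FPKM, 0.07), Ndufc2 (58.4 to 58.3) and Ndufb8 (74.4 to 73.3) had nearly equal values in both groups.

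Ndufs5 had the most extreme value and was not called. The table lists it at 27.96 FPKM in nonwounded skin and 0.00823 in the wound bed, with an adjusted p of 0.485 from the authors' deposited table. The same locus also carries a transcript that RefSeq assigns to the transcribed pseudogene Ndufs5-ps, at 60.3 and 68.7 FPKM. Both together gave 88.3 FPKM in nonwounded skin and 68.7 in the wound bed, a log2 fold change of -0.36. The table's other row of that transcript lies at another locus and is not in this sum. How reads matching both copies were counted is not given in the sources used here, so the value of Ndufs5 alone is uncertain.

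Complex II, succinate dehydrogenase, is encoded wholly by 4 nuclear genes, and none was called. By the major isoform, 7.00% of all genes were called higher and 8.68% lower. Sdha, the flavoprotein gene, stood at 56.5 FPKM in nonwounded skin and 43.9 in the wound bed (-0.37), Sdhb, the iron-sulfur subunit gene, at 54.4 and 44.6 (-0.28), and Sdhc, a membrane anchor gene, at 77.3 and 61.9 (-0.32). Sdhd, the other anchor gene, went the other way, from 75.1 to 89.0 (0.24). Their adjusted p-values from the authors' deposited table lay between 0.322 and 0.516.

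Complex III, the cytochrome bc1 complex, had 7 of 9 genes lower, against 58.5% of all genes, and a median of -0.37. Of its genes 0 were called, against 7.00% of all genes called higher and 8.68% called lower by the major isoform. Uqcrh, an accessory subunit gene, was the most abundant, at 338 FPKM in each group, followed by Uqcrb with 194 in nonwounded skin and 139 in the wound bed (-0.48). The catalytic subunit genes Cyc1, for cytochrome c1, and Uqcrfs1, for the Rieske iron-sulfur protein, had log2 fold changes of -0.37 and -0.41. Uqcrq, another accessory subunit gene, stood at 35.9 and 43.4 FPKM (0.28).

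Complex V, ATP synthase, showed the smallest median of the 5 complexes, -0.18 over 15 genes, which is close to the median of all genes. The catalytic subunit genes Atp5b and Atp5a1 had values of -0.12 and -0.09, and Atp5c1, for the central shaft, -0.18. Atp5k, a small membrane subunit gene, was the most abundant transcript of all 93 genes, at 437 FPKM in nonwounded skin and 343 in the wound bed (-0.35), and Atp5e came next in the complex in nonwounded skin, with 341 and 248 (-0.46), while in the wound bed Atp5b, at 296, was above it. Atp5g1, Atp5g2 and Atp5g3 encode the same c subunit of the rotor, and stood at 63.3, 205 and 250 FPKM in nonwounded skin and at 46.3, 204 and 199 in the wound bed. Summed over the complex, the FPKM was 3339 in nonwounded skin and 2859 in the wound bed, which is 85.6% of the former.

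**Figure D2:**
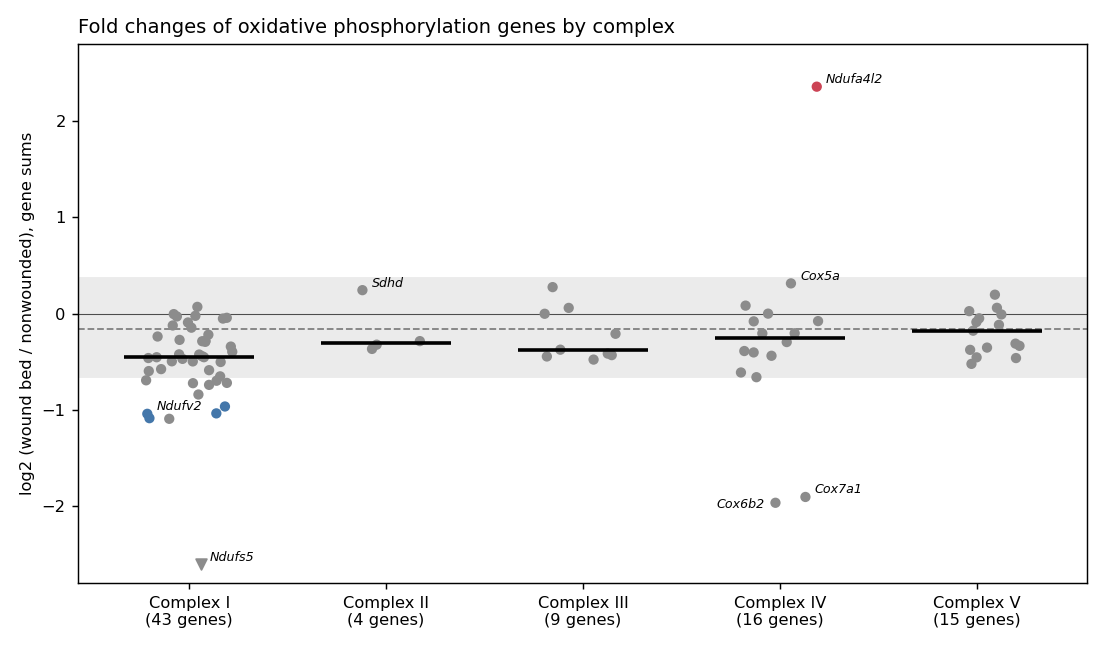
Log2 fold change of gene sums (vertical axis, wound bed over nonwounded) by complex for the 87 complex genes that passed the level filter, 1 point per gene, coloured red or blue where the major isoform was called higher or lower and grey otherwise; bars are medians, and the dashed line and grey band are the median and quartiles of all genes. The medians run from -0.45 in complex I to -0.18 in complex V, and the Ndufs5 value of -11.73 is drawn as a triangle at the lower edge.

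The order of the levels was similar in both groups. Across the 76 subunit genes other than assembly factors, non-subunits and tissue or condition isoforms, the Spearman correlation of the wound bed with the nonwounded FPKM was 0.95, a description across genes that are not independent replicates. Together the 93 genes took 2.003% of all FPKM in nonwounded skin and 1.73% in the wound bed.

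Complex IV, cytochrome c oxidase, held the only gene called higher. Ndufa4l2, a paralog of the complex IV subunit gene Ndufa4 and known as a gene induced under hypoxia, rose from 16.0 FPKM in nonwounded skin to 81.9 in the wound bed, a log2 fold change of 2.36 (adjusted p = 0.0134 from the authors' deposited table). Its locus on chromosome 10, from 127514939 to 127522444, is shared in the table with the neighbouring gene Shmt2. Ndufa4 itself stood at 266 and 169 FPKM (-0.66) with an adjusted p of 0.0769 from the authors' deposited table. The 2 paralogs together summed to 282 FPKM in nonwounded skin and 250 in the wound bed, and the share of Ndufa4l2 in that sum was 5.66% and 32.7%.

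Ndufa4l2 is also known as a gene of pericytes, and the pericyte markers are given beside it. Of 6 such markers 4 were tested, 0 were called higher and 1, Kcnj8, was called lower, from 58.3 to 14.9 FPKM. Rgs5 stood at 0.709 FPKM in nonwounded skin and 1.45 in the wound bed, Notch3 at 0.230 and 0.681, and Cspg4 at 0.329 and 0.489. Abcc9 stood at 8.34 and 13.7 FPKM and Mcam at 1.17 and 1.38, both without a call. The list summed to 69.0 FPKM in nonwounded skin and 32.5 in the wound bed. That fall lay in Kcnj8, while the other markers were higher in the wound bed. The median log2 fold change of the 4 markers that passed the level filter was 0.48. The part of pericytes in the Ndufa4l2 value was not tested.

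The ubiquitous complex IV subunit genes had small fold changes, and none was called as a gene. The most abundant in nonwounded skin were Cox4i1, at 377 FPKM in nonwounded skin and 288 in the wound bed (-0.39), and Cox6c, at 317 and 275 (-0.20). Cox6b1 (304 to 323) and Cox8a (274 in each group) had nearly equal values, Cox7b stood at 75.8 and 49.7 (-0.61, adjusted p = 0.0932 from the authors' deposited table) and Cox5a at 66.5 and 82.7 (0.31). Cox4i2, the low-oxygen partner of Cox4i1, stood at 0.282 and 0.569 FPKM and was not tested, and it made up under 1% of the pair in both groups. Cox6a1 stood at 271 and 235 FPKM, Cox7a2 at 111 and 90.4, and Cox7a2l at 152 and 144. Cox7a2l is described as a factor that joins complexes III and IV into supercomplexes, and whether it does so in this mouse strain was not examined.

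The testis paralogs of complex IV subunits were low in nonwounded skin and lower still, or listed at 0, in the wound bed. Cox8c was listed at 11.0 FPKM in nonwounded skin and at 0 in the wound bed, and Cox7b2 at 6.39 and 0, each with an adjusted p of 0.000882 from the authors' deposited table. No fold is computed against a value of 0, and an exact 0 can be a failed estimate. Without isoforms listed at 0, 6 isoforms were called lower in place of 8. Cox6b2 stood at 10.9 and 2.81 FPKM as a gene sum (-1.96), without a call, and its major isoform was listed at 5.26 and 2.59e-05. In nonwounded skin Cox8c made up 3.83% of the Cox8 genes and Cox7b2 7.77% of the Cox7b pair.

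Male germ cell genes were lower beside these 3 genes. Of the 6 germ cell markers, 2 were called lower and the other 4 were also lower, and their sum was 426 FPKM in nonwounded skin and 0.748 in the wound bed. Tnp1 and Prm2, which package DNA in sperm, stood at 237 and 106 FPKM in nonwounded skin and were listed at 0 in the wound bed. Prm1 stood at 75.1 and 0.180, without a call. The germ cell genes Ddx4 (3.24 and 0.111) and Dazl (0.575 and 0.0136) were at low levels. Their part in the values of Cox8c, Cox7b2 and Cox6b2 was not tested.

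Paralogs used in striated muscle were also low. Cox7a1 stood at 14.7 FPKM in nonwounded skin and 3.94 in the wound bed (-1.90), without a call (adjusted p = 0.281 from the authors' deposited table). Cox6a2 stood at 0.445 and 0.0835 and was not tested, and Cox8b at 2.42 and 2.29. All 9 skeletal muscle markers that passed the level filter were lower in the wound bed, 1 of them called (Mylpf, 31.8 to 1.23 FPKM), and the 12 markers summed to 124 FPKM in nonwounded skin and 10.1 in the wound bed. Cox7a1 and Cox8b also mark brown fat, where the uncoupling protein gene Ucp1 stood at 0.0531 and 2.55 FPKM without a call. Of the other markers of that list, Elovl3 stood at 0.693 and 0.230 FPKM, Cidea at 1.553 and 1.728 and Ppargc1a at 0.143 and 0.0804, and 0 of the 5 tested were called. The part of either cell type in the Cox7a1 value was not tested.

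**Figure D3:**
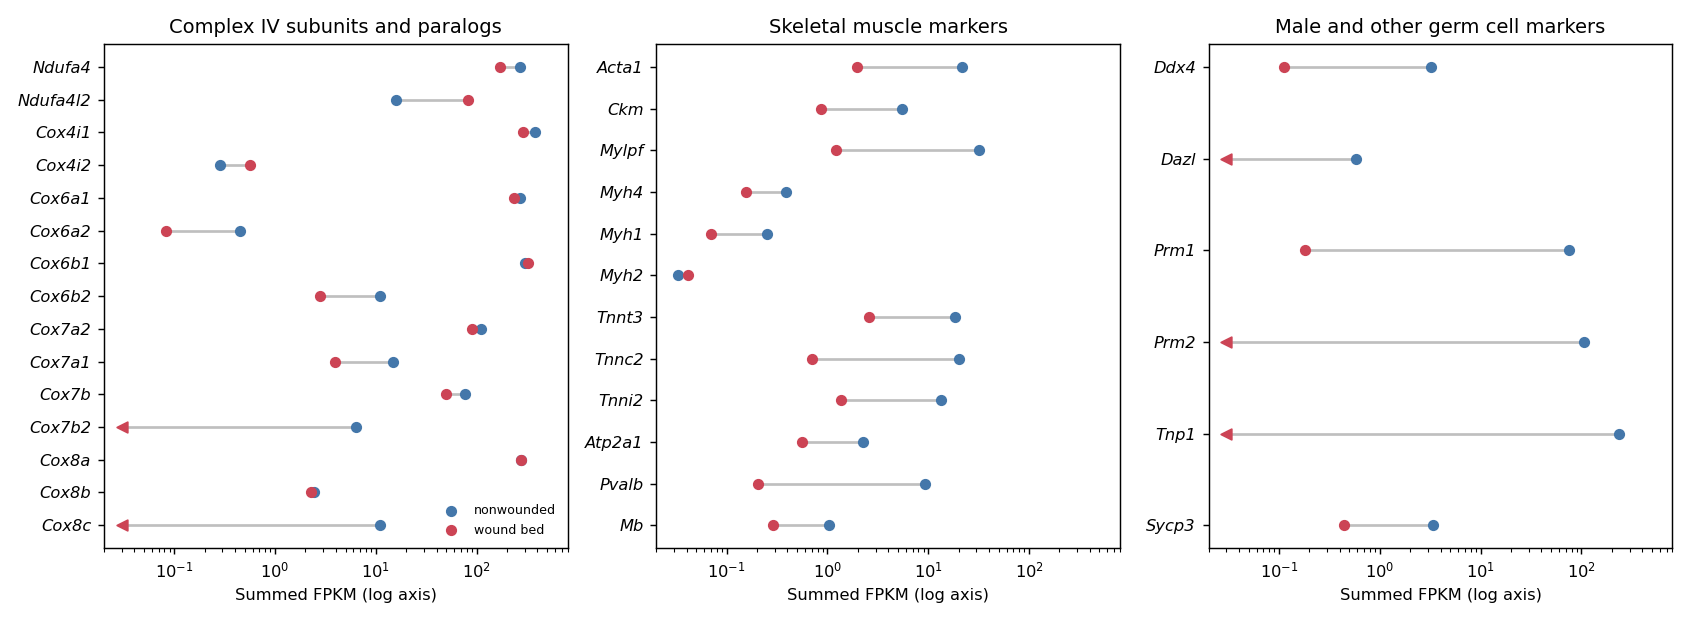
Summed FPKM (horizontal log axes) in nonwounded (blue) and wound bed (red) precursors of the complex IV subunits with paralogs (left), of 12 skeletal muscle markers (middle) and of 6 germ cell markers (right), 1 pooled value per group, with triangles at the left edge for values under 0.03. Ndufa4l2 is higher in the wound bed, and Cox8c and Cox7b2 leave the scale together with Prm2, Tnp1 and Dazl.

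In 2 genes the call concerned a minor isoform and not the gene. Cox4i1 has 2 transcripts with the same coding exons, which differ in GENCODE M21 by 20 bases at exon 1 of 5. The transcript NM_009941 fell from 163 to 4.88 FPKM (adjusted p = 0.000882 from the authors' deposited table), or from 43.3% to 1.69% of the gene, while NM_001293559 stood at 214 and 283 FPKM without a call. Atp5j, a stalk subunit gene of ATP synthase, had a similar split. Its transcript NM_001302214 fell from 99.6 to 5.25 FPKM (adjusted p = 0.00306 from the authors' deposited table), from 43.8% to 2.39% of the gene, and NM_001302215 stood at 124 and 214 FPKM (adjusted p = 0.104 from the authors' deposited table). The gene sum of Atp5j was 227 FPKM in nonwounded skin and 220 in the wound bed (-0.05).

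Without a call, the isoforms of Ndufs1 and Atp5g3 also shared out differently. Ndufs1, the largest core subunit gene of complex I, stood at 19.8 and 18.6 FPKM in sum, while NM_145518 was 67.3% of it in nonwounded skin and 39.1% in the wound bed. Atp5g3 had 3.38% and 14.2% of its FPKM on NM_001301721.

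**Figure D4:**
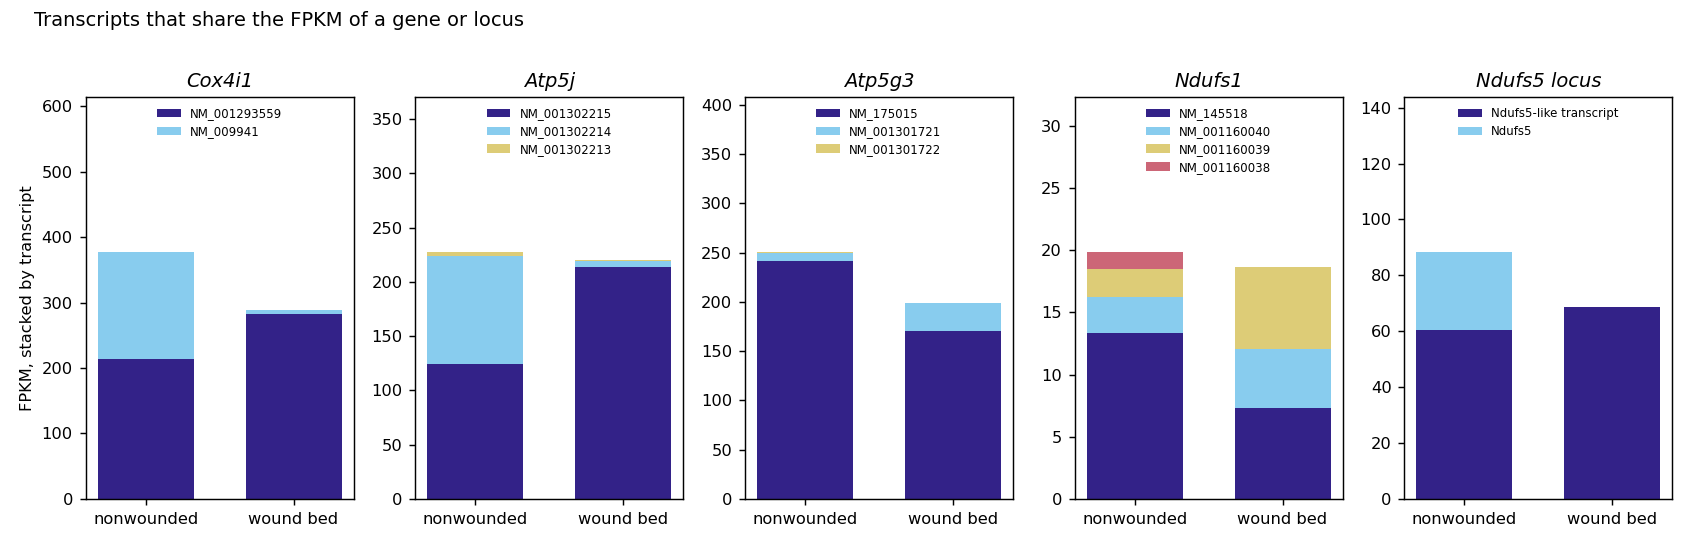
FPKM (vertical axes, each from 0) stacked by transcript for Cox4i1, Atp5j, Atp5g3, Ndufs1 and the Ndufs5 locus in nonwounded and wound bed precursors, 1 pooled value per group; transcripts under 0.1 FPKM in both groups are left out. NM_009941 of Cox4i1 and NM_001302214 of Atp5j fell from 43.3% and 43.8% of their gene to 1.69% and 2.39%, while the gene sums lie closer together.

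Other genes of the pathway were taken from 10 lists, which held 118 entries found in the table and 111 tested, 4 called higher and 4 lower by the major isoform, against 7.00% and 8.68% of all genes. Of 49 tested genes on the assembly and regulation lists of the complexes, outside the Ndufaf genes, 0 were called. By gene sum 38 of the 49 were lower, against 58.5% of all genes, with a median of -0.40. These lists also hold Usmg5, a gene of ATP synthase itself that the symbol patterns do not match, at 161 and 200 FPKM (0.31). Uqcc2, a complex III assembly factor gene, stood at 134 and 77.2 FPKM (-0.80), and Atpif1, the ATP synthase inhibitor gene, at 40.8 and 26.0 (-0.65). Cytochrome c and ubiquinone genes had 0 of 16 called and a median of -0.42. Cycs, the cytochrome c gene, stood at 13.6 and 12.6 FPKM.

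Genes that control the entry of pyruvate into mitochondria went in both directions. Pdk1 and Pdk3 encode kinases that switch off pyruvate dehydrogenase, and rose from 3.70 to 10.5 FPKM and from 3.95 to 11.0 FPKM (1.51 and 1.48 on the log2 scale, adjusted p = 0.000882 and 0.0345 from the authors' deposited table). Pdk4, a kinase gene of the same family linked to fasting and fat use, fell from 12.0 to 2.82 FPKM (-2.08, adjusted p = 0.000882 from the authors' deposited table). Pdk2, also of this family, stood at 12.5 FPKM in nonwounded skin and 6.31 in the wound bed (-0.99), without a call (adjusted p = 0.0644 from the authors' deposited table). The genes of the enzyme itself, Pdha1, Pdhb and Dlat, had log2 fold changes of -0.31, -0.44 and -0.24 without a call.

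In the tricarboxylic acid cycle 0 of 14 genes were called higher and 2 lower, Suclg1 (50.02 to 27.5 FPKM, -0.86), a succinyl-CoA ligase subunit gene, and Idh3g (57.3 to 33.3, -0.78), an isocitrate dehydrogenase subunit gene. The background share by the major isoform was 7.00% for rises and 8.68% for falls. No test of this list against that background was made, and 14 genes are too few to show a direction by such counts. Cs, for citrate synthase, stood at 47.9 and 47.8 FPKM, and the median of the list was -0.14, close to the -0.16 over all genes. Among the carriers of the inner and channels of the outer membrane, the ADP/ATP carrier gene Slc25a5 rose from 92.4 to 168 FPKM (0.86, adjusted p = 0.0106 from the authors' deposited table), and Slc25a4, of the same family, stood at 261 and 271. Vdac3, an outer membrane channel gene, fell from 94.6 to 57.9 FPKM (-0.71 as a gene sum). Ucp2, for an uncoupling protein homologue, stood at 26.0 and 31.3.

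The 15 regulators of mitochondrial biogenesis ranged from 0.0389 to 10.7 FPKM in nonwounded skin and from 0 to 17.0 in the wound bed. Ppargc1a, the gene of the coactivator PGC-1alpha, stood at 0.143 and 0.0804 FPKM and was not tested, Tfam, for the main mitochondrial transcription factor, at 6.25 and 3.90 (-0.68), Nrf1 at 6.065 and 4.62 (-0.39) and Esrra, a nuclear receptor gene, at 3.56 and 3.70. Gabpb1, a partner of the ETS factor GABPA, rose from 5.53 to 17.0 FPKM (1.62 as a gene sum, adjusted p = 0.00874 for its major isoform from the authors' deposited table), and Gabpa stood at 7.88 and 8.69.

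**Figure D5:**
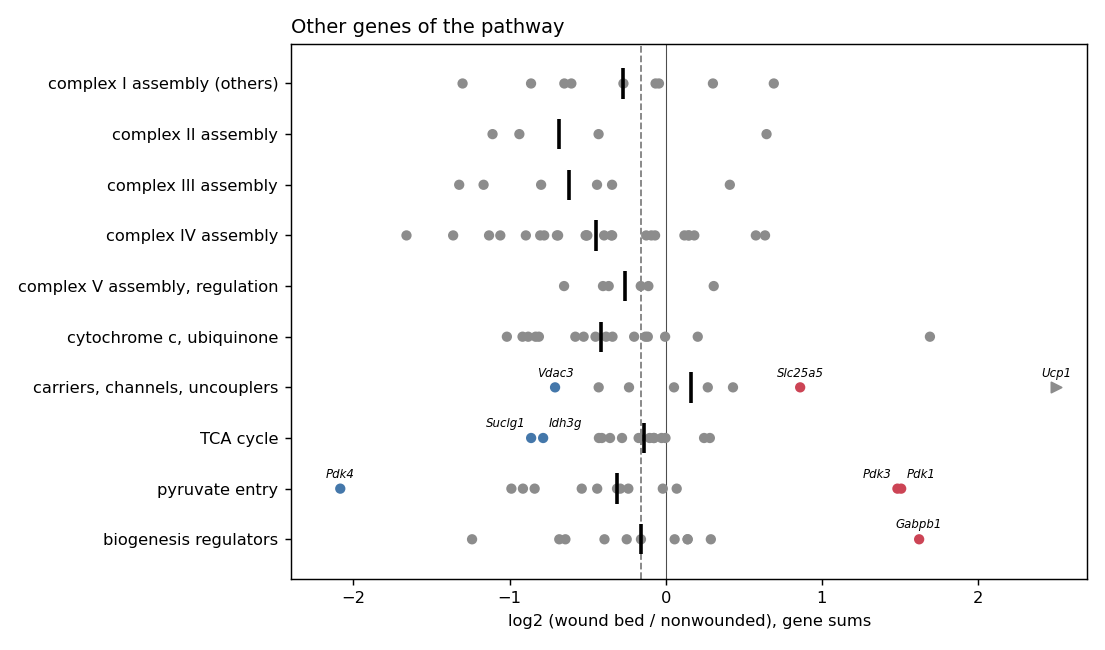
Log2 fold change of gene sums (horizontal axis, wound bed over nonwounded) for members of 10 further lists (rows) that passed the level filter, 1 point per gene, coloured as red for a higher and blue for a lower call of the major isoform; bars give list medians and the dashed line that of all genes. Pdk1, Pdk3, Slc25a5 and Gabpb1 lie to the right, Pdk4, Suclg1, Idh3g and Vdac3 to the left, and Ucp1 (5.58, from 0.0531 to 2.55 FPKM, not called) is drawn at the right edge.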

How the data were processed

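TruSeq mRNA libraries were made from RNA purified by Trizol and RNeasy columns, per the labels' protocols. Reads were aligned with TopHat2 2.0.2 and groups compared with Cuffdiff 2.0.2 on mm9, per the submitters' processing notes. The authors deposited 1 FPKM per isoform and group, each beside a p-value. The deposited log2 fold change has the opposite sign (nonwounded over wound bed) and was used only to check the direction. FPKM are not counts, so no count test and no test across samples was run. The p-values come from Cuffdiff's model of these samples alone, and the spread between the samples may be technical.

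Deposited p-values were adjusted over the 17775 isoforms with status OK, and the calls at an adjusted p under 0.05 were those of the deposited significance column. The 15 isoforms marked as failed or over the fragment limit were left out. Of symbols turned into dates, 56 rows were restored by transcript. Gene sums carry no pseudocount and need a sum of at least 1 in the higher group and above 0 in both, and they have no p-value. An exact 0 can be a failed estimate. The number of per-sample columns not used was 0.

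Genes named were all members with a called isoform, the 2 most abundant per complex, the paralog sets, the 4 largest rises and falls, the Sdh genes, up to 3 called genes per direction in each list, and a fixed set. Ndufs1, Ndufs4, Ndufs5, Ndufs6, Ndufb8, Ndufc2, Uqcc2 and other examples without a call were chosen after their values were seen. Members and lists were chosen with earlier results of these data known. Starts count from 1. All 76 member loci that hold 1 gene had a start or end within 100 bases of the RefSeq GRCm38 position, so the printed loci are on GRCm38, although the submitters' processing notes name mm9. Near-identical pseudogenes exist for many subunit genes, and how reads with several matches were counted is not given in the sources used here. The adjustment and sums were tested on simulated data. Python 3.11.15, numpy 2.4.6, pandas 2.3.3 and matplotlib 3.10.9 were used.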

Additional observations from a re-analysis of the deposited data

How the results depend on the processing

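No paired analysis was possible because the table holds 1 pooled value per group, and for the same reason no replicate was left out in turn. At an adjusted p under 0.1, 15 isoforms were lower in place of 8, and at 0.01 none was higher in place of 1 (a count of 0) and 6 were lower. Under the other rules for calls (a log2 fold change of at least 1, adjustment over isoforms with an FPKM of at least 1, no isoforms at 0, no assembly factors or non-subunits, and, chosen after seeing the data, no testis paralogs) 6 to 9 were lower and 1 was higher. Centring on the median of all genes moved the median log2 fold change of all 89 genes from -0.37 to -0.21, and those of complexes I to V to -0.29, -0.14, -0.21, -0.089 and -0.016. Pseudocounts of 0.1 and 1, other FPKM minimums, major isoforms in place of sums, tested isoforms alone, members without assembly factors, a nonwounded sum of at least 20 and leaving out Ndufs5 (the last 2 chosen after seeing the data) moved none of these medians by more than 0.1. Of the single genes, 6 moved by more than 0.1 with the major isoform and 9 with a pseudocount of 1, and the sign turned for Cox4i1 (-0.39 to 0.41) and Atp5j (-0.05 to 0.78) with the major isoform, which in both genes is not the isoform called lower. After centring, 26 of the 89 genes were higher. With unknown depth and 2 wound bed samples, a missed call does not show equal levels.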
